A study of Macaca mulatta with 2 samples.

Results

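TRAV13-1+ GZMB- cells were defined by their UMIs, the counted RNA molecules of single cells, as quality-filtered cells with at least 1 UMI of TRAV13-1 and none of GZMB (granzyme B) or TRAV38-1. They were 216 of the 7601 cells that passed the quality limits, which is 2.84% (95% exact binomial interval 2.48 to 3.24%). All cells came from the blood of a single untreated rhesus monkey aged 6 years, sorted with magnetic beads first for CD4 and then for CD8, a sort for CD4+CD8+ double-positive (DP) T cells. By the tag limits set below, 47.8% of the 7601 cells were above both, and 86 were cells with B cell genes and no CD3. The limits come from those 86 cells of the same sort and were not checked as a cut for DP cells. The authors of the study reported high CD4 and CD8 tags in every cluster and took all analysed cells to be DP T cells. RNA and surface tags (DNA-labelled antibodies to CD4 and to CD8) were sequenced from the same droplets, 1 library of each, and all 216 barcodes had tag UMIs. With no replicate there is no test and no p-value here, and the intervals, all at 95%, cover counting error only. The 216 cells held 984781 gene UMIs. The median cell had 4166.5 UMIs from 1274.5 genes. The comparison T cells (comparator in the plots) were the 3824 cells with a UMI of CD3E and none of GZMB or TRAV13-1, whose median cell had 4041.5 UMIs. The name under which the cells were proposed also lists SFRP5, TRBV14 and CD7 as markers. Against the comparison T cells the data did not bear this out: TRBV14 was nearly absent and the SFRP5 and CD7 shares were close. Against all 7601 cells, which include those with GZMB, the SFRP5 and CD7 shares were higher. SFRP5 was in 18.1% (13.2 to 23.8%) against 9.6% (8.95 to 10.3%), and CD7 in 67.1% (60.4 to 73.4%) against 39.5% (38.4 to 40.6%). The cells are therefore called here by their rule only.

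A T cell receptor is a pair of chains, alpha and beta in most blood T cells, and each chain gene is assembled in the thymus from separate variable, joining and constant pieces. TRAV13-1 is a variable segment of the alpha chain and TRBV14 of the beta chain, so a segment marks which receptor a cell carries and not, on its own, a cell state. The libraries were read from the 5′ end of the RNA, where the variable segment lies, but at this depth many cells gave no UMI of a named segment, so a missing UMI does not show that the segment is missing. GZMB encodes a protease of cytotoxic granules, SFRP5 a secreted antagonist of Wnt ligands, and CD7 a surface glycoprotein of T cells and natural killer cells. In RefSeq's annotation of Mmul_10, matched by symbol, GZMB lies at chr7:86703929-86707259, SFRP5 at chr9:98215849-98221324 and CD7 at chr16:78668360-78673169, all on the minus strand.

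The germline variable exons are shown because the gate and the label rest on them. They were read from the Mmul_10 genome at the RefSeq genes named as TRAV13-1-like, TRBV9-like and TRBV14-like, which were matched by product name and not by the gene IDs of the deposited counts. TRBV9 is the beta segment found in more of the cells than any other and TRBV14 the label's beta segment. Each sequence starts at the first base of the variable exon on the plus strand and was cut 9 bases after the cysteine codon, before the annotated end of the exon (83752499, 168812315 and 169081313, in the order printed). The capitals mark the in-frame stretch of a tyrosine codon, any codon and a cysteine codon, where the conserved cysteine before the joining region lies.
TRAV13-1-like, start of the variable exon, chr7:83752120-83752406: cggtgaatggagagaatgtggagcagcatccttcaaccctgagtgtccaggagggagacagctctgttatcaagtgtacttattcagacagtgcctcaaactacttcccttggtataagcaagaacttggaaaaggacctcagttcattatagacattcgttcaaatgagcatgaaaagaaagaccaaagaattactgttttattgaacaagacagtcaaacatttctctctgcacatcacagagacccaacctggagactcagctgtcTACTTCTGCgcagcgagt
TRBV9-like, start of the variable exon, chr3:168811963-168812252: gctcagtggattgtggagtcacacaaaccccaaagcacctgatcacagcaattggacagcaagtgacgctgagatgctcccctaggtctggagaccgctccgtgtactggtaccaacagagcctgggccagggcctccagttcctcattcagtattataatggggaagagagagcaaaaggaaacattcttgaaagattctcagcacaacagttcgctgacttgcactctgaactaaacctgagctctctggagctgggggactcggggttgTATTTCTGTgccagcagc
TRBV14-like, start of the variable exon, chr3:169080811-169081103: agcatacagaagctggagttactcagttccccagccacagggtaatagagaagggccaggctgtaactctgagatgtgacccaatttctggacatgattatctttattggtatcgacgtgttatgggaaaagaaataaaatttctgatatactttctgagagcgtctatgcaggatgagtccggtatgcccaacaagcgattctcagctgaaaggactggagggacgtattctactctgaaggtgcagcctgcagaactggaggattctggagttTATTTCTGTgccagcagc
Among the 15 RefSeq alpha segments that aligned over at least 200 bases, the one most like TRAV13-1-like was an alpha 23/delta 6-like segment, with 65.8% identity over 266 aligned bases. RefSeq named 1 segment of the alpha 13 group among 33 alpha segments.

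TRAV13-1, the gene that chose the cells, gave 673 UMIs in the 216 cells, or 683 CPM (counts scaled to the same total of gene UMIs in every group; exact Poisson interval 633 to 737). The UMIs per cell ran from 1 to 16 with a median of 2. At the edge of the rule, 68 cells had 1 TRAV13-1 UMI and 48 had 2, while 100 had 3 or more and 6 had 10 or more. A further 41 cells with TRAV13-1 were left out for a GZMB UMI and 3 for a TRAV38-1 UMI. B gene cells, which should lack the receptor, were the 86 cells with 3 or more UMIs of the B cell list and no CD3D, CD3E or CD3G UMI. Of these, 0 had a TRAV13-1 UMI, which allows a share of up to 3.49% if the limit is set at 3 counts (exact binomial upper bound 4.2%). The cells were T cells by their CD3 chains: 211 of 216 had a UMI of CD3E and 94.4% one of CD3D.

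**Figure D1:**
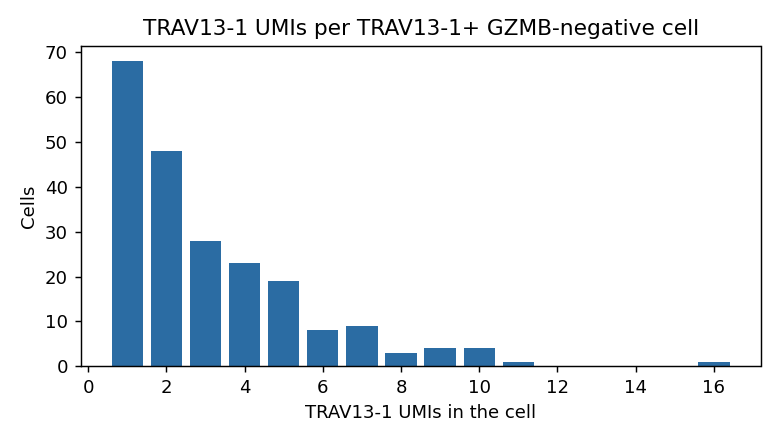
Number of TRAV13-1+ GZMB- cells (vertical axis) by their TRAV13-1 UMIs (horizontal axis). The 68 cells with 1 UMI form the tallest bar, and the highest cell has 16.

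TRBV14, the beta segment of the label, was found in 1 of the 216 cells (0.463%, interval 0.0117 to 2.55%), with all 6 of its UMIs in that cell. The share was 1.73% (1.34 to 2.19%) in the comparison T cells and 1.8% (1.05 to 2.86%) in the 945 of them that also had UMIs of CCR7 and LEF1, a naive gate. In TRAV38-1+ GZMB- cells, 115 cells with TRAV38-1 and no GZMB or TRAV13-1, it was 2.61% (0.541 to 7.43%). At 6.09 CPM against 28.2 CPM, the log2 ratio of CPM + 10 to the comparison T cells was -1.25 (-1.65 to -0.71). All these UMIs sit in few cells, so the interval of the ratio understates its error. The interval of the share in TRAV13-1+ GZMB- cells overlaps that of all 3 groups. With 1 cell, no comparison of cells with and without TRBV14 was made.

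SFRP5 was found in 39 of the 216 cells (18.1%, 13.2 to 23.8%). The shares were 15.6% (14.5 to 16.8%) in the comparison T cells, 22.5% (19.9 to 25.3%) in the CCR7+ LEF1+ cells and 11.3% (6.16 to 18.6%) in TRAV38-1+ GZMB- cells, and 0 of the 86 B gene cells had a UMI. Its level was 50.8 CPM (37.7 to 66.9) against 46 CPM (42.8 to 49.4), a log2 ratio of 0.12 (-0.24 to 0.47), so SFRP5 did not differ from the comparison T cells beyond counting error. After each cell was thinned to 2000 UMIs, the shares were 10.7% and 8.4%. CD7 was found in 67.1% (60.4 to 73.4%) of the cells at 484 CPM (442 to 529.9), against 62.3% (60.7 to 63.8%) at 425 CPM (415 to 435), a log2 ratio of 0.19 (0.05 to 0.32). The CCR7+ LEF1+ cells had more, with 84% and 535 CPM, and 2 of the 86 B gene cells had a CD7 UMI.

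**Figure D2:**
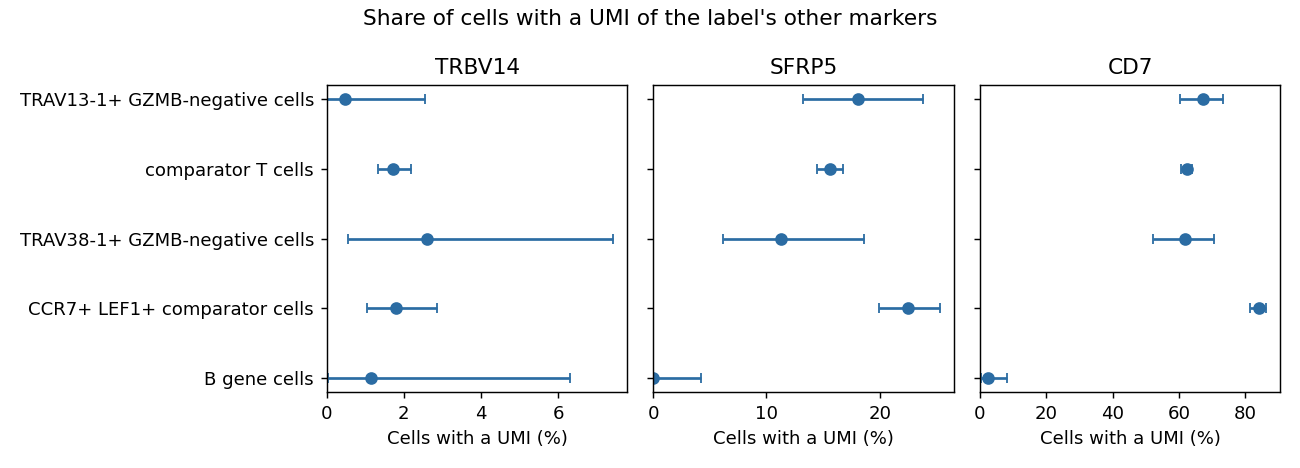
Share of cells with a UMI of TRBV14, SFRP5 and CD7 (horizontal axes, percent) in 5 groups of cells, with points for the share and bars for the 95% exact binomial interval. TRAV13-1+ GZMB- cells have 0.463% for TRBV14, and for SFRP5 and CD7 they lie between the comparison T cells and the CCR7+ LEF1+ cells.

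The beta chains of the cells were mixed. Of the 216 cells, 90 had no UMI of a named beta segment, 104 had 1 segment and 22 had at least 2. In all, 20 of the 21 named segments were seen. Any named beta segment was in 58.3% (51.5 to 65%) of the cells, against 48.1% (46.5 to 49.7%) of the comparison T cells. At least 2 were in 10.2% (6.49 to 15%) against 6.3% (5.55 to 7.12%). The shares of single segments below are of all cells, so this higher detection enters them. TRBV9 was the most frequent, in 28 cells (13%, 8.79 to 18.2%), against 6.17% (5.43 to 6.98%) of the comparison T cells. Its level differed less, at 83.3 CPM (66.2 to 103) against 65.5 CPM (61.6 to 69.5), a log2 ratio of 0.31 (0.00 to 0.60). TRBV6-1 followed, in 17 cells (7.87%, 4.65 to 12.3%) against 2.93% (2.42 to 3.51%). TRBV27 and TRBV5-1 were each in 15 cells (6.94%, 3.94 to 11.2%), against 5.47% and 6.64%. The intervals of TRBV9 and TRBV6-1 did not overlap between the groups, while those of TRBV27 and TRBV5-1 did. TRBV12-5, in 7 cells (3.24%, 1.31 to 6.56%) against 0.706% (0.466 to 1.03%), did not overlap either. The segments named here were picked out of the 21 after their values were seen. Of the 21, 12 had a higher share in the TRAV13-1+ GZMB- cells than in the comparison T cells. Thinned to 2000 UMIs, TRBV9 was in 8.78% (5.29 to 13.5%) against 4.85% (4.17 to 5.6%) of the cells and TRBV12-5 in 1.46% (0.303 to 4.22%) against 0.468% (0.273 to 0.749%), so that these intervals overlapped. Those of TRBV6-1 did not, at 6.34% (3.42 to 10.6%) against 2.04% (1.6 to 2.55%). Without the cell with most TRBV6-1 UMIs, its log2 ratio of 1.53 was 1.11. Neither segment was in a majority of the 126 cells with a named beta segment.

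**Figure D3:**
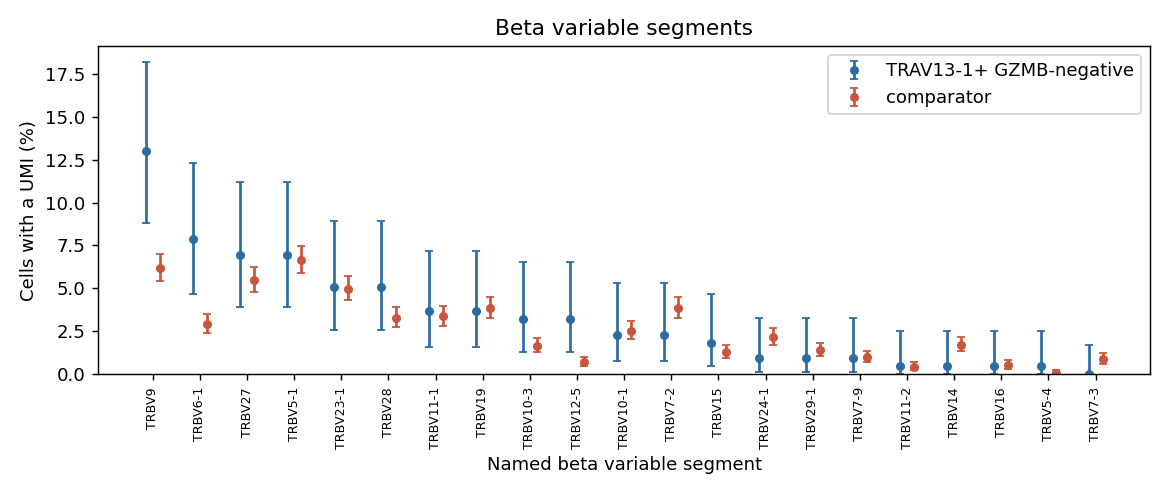
Share of cells with a UMI (vertical axis, percent) of each named beta variable segment (horizontal axis) in TRAV13-1+ GZMB- cells and in the comparison T cells, with 95% exact binomial intervals. TRBV9 at 13% and TRBV6-1 at 7.87% are the highest in the former.

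A second alpha segment, other than TRAV13-1 and TRAV38-1, was seen in 68 of the 216 cells (31.5%, 25.3 to 38.1%). In the comparison T cells, which may carry any of them as their only alpha chain, the share was 50.2% (48.6 to 51.8%). Because the rule fixes TRAV13-1 in the former group and its absence in the latter, this difference is a description. A more like comparison sets the gate, without the TRAV38-1 condition, on each of the other 19 alpha segments described below. Another alpha segment was then in 22.2% to 47.5% of the cells, with a median of 36.7%, and in 32.4% for TRAV13-1. TRAV12-3 was in 5 cells (10.2 CPM against 58.5 CPM) and TRAV19 in 7 (11.2 against 36.2 CPM). TRAV12-2 went the other way, with 51.8 CPM against 27.7 CPM in 11 cells, a log2 ratio of 0.71 (0.35 to 1.07), but it was -0.62 among cells with at least 2 TRAV13-1 UMIs. A feature without a symbol, ENSMMUG00000061081, had a UMI in 58 of the 216 cells (26.9%, 21.1 to 33.3%) against 4.05% (3.45 to 4.73%) of the comparison T cells, and its log2 ratio was 1.66 (1.39 to 1.92). It was in 30.9% (20.2 to 43.3%) of cells with 1 TRAV13-1 UMI, 18.8% (8.95 to 32.6%) of those with 2 and 28% (19.5 to 37.9%) of those with 3 or more, and the sources used here give it no name.

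The same gate was set on each of the other 19 named alpha segments that had at least 50 GZMB-negative cells, here without the TRAV38-1 condition. Of the 260 cells with TRAV13-1, 84.2% (79.2 to 88.4%) lacked GZMB, and this interval overlapped those of TRAV1-1, TRAV29DV5, TRAV8-6, TRAV3, TRAV9-2 and TRAV17. The 19 other segments ran from 24.9% to 86.8%, with only TRAV1-1 higher, against 56% of all 7601 cells. CTSW (cathepsin W, a protease of cytotoxic lymphocytes) was in 5.94% of these cells, against a median of 13.6% over the other segments, and 1 segment, TRAV3, was lower. Its interval (3.2 to 9.94%) overlapped those of 13 of the 19 segments. CCL5, a chemokine of effector T cells, was in 5.02% (2.53 to 8.81%), with all 19 other segments higher, but the intervals of 15 of them overlapped this one. TRBV9 was in 12.8% of these cells, and TRAV1-1 (22%), TRAV20 (14.3%) and TRAV12-2 (12.9%) were higher. TRBV6-1 was in 7.76%, with 1 segment, TRAV5 (9.45%), higher, and its interval overlapped those of 17 of the 19 segments, as did that of TRBV9. For TRBV14, with 0.913%, 16 segments were higher. SFRP5 (17.8%) and CD7 (67.6%) lay among the other segments, with 6 and 7 of them higher.

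Across all genes the TRAV13-1+ GZMB- cells were close to the comparison T cells. Of 4362 genes with a mean level of at least 20 CPM, 3 were past a log2 ratio of 1 upwards (0.0688%) and 12 downwards (0.275%), and the median log2 ratio was -0.02. The 3 were TRBV6-1 and 2 features without a symbol. Of the 12, 4 had no symbol and 3 were receptor segments (TRAV12-3, TRBV24-1, TRAV19), which leaves HBA, HBB, EGR1, CTSW and MAMU-DRA. TRAV12-3 and TRAV19 are alpha segments, whose ratios are a description because the rule itself sets the alpha segment of the cells. Without cells holding at least 3 UMIs of red blood cell or of B cell genes, an alternative chosen after seeing the data, 4 genes were past the fold upwards and 8 downwards.

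CTSW, at 23.4 CPM (14.8 to 35) in 13 of the 216 cells against 68.1 CPM (64.1 to 72.2) in 15% of the comparison T cells, had a log2 ratio of -1.23 (-1.66 to -0.79). Its UMIs were spread over cells, with at most 6 in 1 of the TRAV13-1+ GZMB- cells and at most 10 in a comparison T cell. EGR1, an immediate early transcription factor, had 5 UMIs in 5 cells against 995 UMIs in 139 comparison T cells, of which 10 cells held 51.2%. Its log2 ratio of -2.22 became -0.25 without the cells of red blood cell or B cell genes. The hemoglobin genes HBA and HBB had log2 ratios of -4.15 and -3.96, and a single comparison T cell held 3270 of the 3356 HBA UMIs and 2649 of the 2656 HBB UMIs. Without those cells the ratios were -0.30 and 0.10. MAMU-DRA, the alpha chain of a class II molecule, went from -1.02 to 0.41 in the same way. The B cell list as a whole summed to 43.7 CPM against 91.9 CPM, with CD79A its most abundant gene in the comparison T cells. The red blood cell list summed to 3.05 CPM against 369.8 CPM.

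Of the 12 largest ratios among genes with a symbol and at least 20 UMIs, only TRBV6-1 was past the fold of 2. Those below it included TRBV10-3 (just under the threshold), CSF1 (macrophage colony-stimulating factor, 0.72, 0.32 to 1.11) and NRIP1 (a nuclear receptor corepressor, 0.61, 0.22 to 0.99). TRBV10-3 rested on few cells, since 23 of its 52 UMIs were in 1 cell and the ratio of means over cells was 0.13. The others were TRAV12-2 and DHX38, TFAP4, RALB, IDE, SLC4A1AP, COPS7A and EMB, at 0.59 to 0.71. Downwards, SPINK2 (a serine protease inhibitor) had -0.84 (-1.21 to -0.47), INPP5D (the lipid phosphatase SHIP1) -0.75 (-1.15 to -0.35), TRAV29DV5 -0.83 and TRAV20 -0.76.

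**Figure D4:**
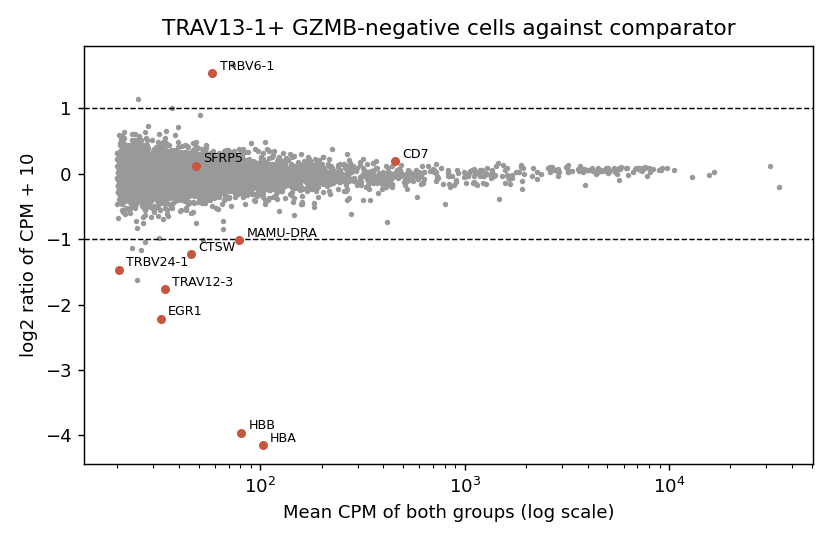
Log2 ratio of CPM + 10 of TRAV13-1+ GZMB- cells to comparison T cells (vertical axis) against the mean CPM of both groups (horizontal axis, log scale) for the 4362 genes tested, with dashed lines at a log2 ratio of 1 and -1. Most genes lie near 0, HBA and HBB are lowest at -4.15 and -3.96, and TRBV6-1 is at 1.53.

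Few genes of the lists were past the fold. Among 15 measured naive and recirculation genes with enough level to be tested, 0 were past the fold and the median log2 ratio was 0.12, beside -0.02 for all genes. CCR7, the lymph node homing receptor, was in 49.5% (42.7 to 56.4%) of the cells against 46.9% (45.3 to 48.5%), and LEF1, a Wnt pathway transcription factor, in 38.9% against 39.4%. Of 8 cytotoxic genes tested, 1 (CTSW) was past the fold downwards, as were 0.275% of all genes. All 8 were below 0, where 46.3% of all genes were above it, and their median was -0.43. GNLY (granulysin) was at 150.3 CPM against 218 CPM, a log2 ratio of -0.51 (-0.74 to -0.29), and NKG7 at 153 CPM against 213 CPM, a log2 ratio of -0.45 (-0.67 to -0.22). GZMK (granzyme K) was at 204 CPM against 205 CPM, in 9.26% (5.75 to 13.9%) against 13.9% (12.8 to 15%) of the cells, and 10 of the TRAV13-1+ GZMB- cells held 76.1% of their GZMK UMIs. The rule bars GZMB from both groups, so the cytotoxic list is compared among GZMB-negative cells only. None of 15 memory and adhesion genes, 10 helper subset genes, 6 regulatory genes, 4 innate-like genes, 15 receptor complex genes, 9 coreceptor and lineage genes, 9 Wnt pathway genes, 11 genes of CD7 and related receptors, 5 interferon-stimulated genes and 2 cycling genes was past the fold, and their medians ran from -0.28 to 0.05. Above 0 were 2 of the 15 memory and adhesion genes (13.3%) and 2 of the 11 of CD7 and related receptors (18.2%). In the other lists just named, 25% to 66.7% of the genes were above 0. Of 14 activation genes EGR1 was past the fold, with a list median of -0.10. No monocyte, platelet or plasmacytoid dendritic cell gene was high enough to be tested, and all 6 measured platelet genes were at 0 in the TRAV13-1+ GZMB- cells. The single NK cell gene tested had -0.47.

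The other 2 groups hold mostly cells that are also among the comparison T cells, and they are smaller, with 115 and 945 cells. Compared with TRAV38-1+ GZMB- cells, 14 of 4425 genes were past the fold upwards (0.316%) and 36 downwards (0.814%). By log2 ratio, the highest were TRAV12-2 (2.16, 1.29 to 2.60), TRBV6-1 (1.70, 1.01 to 2.36), TRBV27 (1.55, 0.84 to 2.23), SOCS2, a suppressor of cytokine signalling (1.39, 0.53 to 2.02), NRIP1 (1.36, 0.53 to 2.03) and NPM3 (1.10, 0.31 to 1.81). On the TRAV38-1+ side these rested on 1, 4, 2, 4, 5 and 7 cells. TRAV12-2 changed sign against the comparison T cells among cells with at least 2 TRAV13-1 UMIs, as given above. Its ratio in that subset is not given for this comparison. The lowest were TRAV17 (-2.19, -2.76 to -1.57), TRBV14 (-1.86, -2.41 to -1.13), TRBV24-1 (-1.65, -2.22 to -0.90), CTSW (-1.65, -2.22 to -1.06), TRAV12-3 (-1.58, -2.20 to -0.86) and SPINK2 (-1.54, -2.02 to -1.06), with TRBV14, TRBV24-1 and TRAV12-3 in 3 TRAV38-1+ cells each. The other segments past the fold downwards were TRBV7-9 (-1.46), TRBV9 (-1.13) and TRBV23-1 (-1.06). Of the lists, ISG15, an interferon-induced gene (-1.40), the chemokine CXCL13 (-1.30), the chemokine receptor CXCR3 (-1.22) and the lectin-like receptor gene KLRB1 (-1.07) were also past it. With the TRAV38-1+ cell that had the highest count of the gene left out, CXCL13 turned to 1.08, and TRAV12-3 (-0.64), TRBV7-9 (-0.41), TRBV9 (-0.62), TRBV23-1 (-0.68), ISG15 (-0.82), CXCR3 (-0.90) and KLRB1 (-0.77) fell short of the fold. CTSW was lower in the TRAV13-1+ GZMB- cells in this comparison too, at 23.4 CPM against 94.9 CPM (70.2 to 125). It was not lower than in the CCR7+ LEF1+ cells, which had 17.1 CPM (13.5 to 21.3). CTSW was in 5.5% (4.14 to 7.15%) of the CCR7+ LEF1+ cells and 6.02% of the TRAV13-1+ GZMB- cells, so a low level was common to both. Compared with CCR7+ LEF1+ cells, 14 of 4318 genes were past the fold upwards (0.324%) and 10 downwards (0.232%). Of 8 cytotoxic genes tested, 6 were past the fold upwards, namely HOPX, GZMK, GNLY, CST7, CCL5 and NKG7, with a list median of 1.34 beside 0.02 for all genes. CCL5 rested on 1 cell with 25 of its 45 UMIs, without which its log2 ratio of 1.64 was 0.76. CSF1 was highest, with 37.6 CPM against 3.72 CPM, followed by GZMK with 204 CPM against 56 CPM. KLRB1 (1.40) and TRAV10 (1.17, and 0.77 without its highest cell) of the innate-like list were also past the fold. The segments upwards were TRBV6-1 (1.45), TRAV12-2 (1.27, with the limit given above), TRAV10 and TRBV10-3 (1.08, and 0.41 without its highest cell). This gate requires CCR7 and LEF1 in the comparison cells and not in the TRAV13-1+ GZMB- cells. The 53 TRAV13-1+ GZMB- cells that had both genes were at 0 CPM (0 to 14.4) for GZMK against 56 CPM (49.4 to 63.3), at 27.4 CPM (11 to 56.5) for CST7 against 36.1 CPM (30.8 to 42.1), at 19.6 CPM (6.36 to 45.7) for NKG7 against 60.8 CPM (53.9 to 68.4) and at 3.92 CPM (0.0992 to 21.8) for GNLY against 58.9 CPM (52 to 66.3). In the same 53 cells CCL5 was at 19.6 CPM (6.36 to 45.7, 5 UMIs) against 7.88 CPM (5.52 to 10.9), HOPX at 35.3 CPM (16.1 to 66.9) against 27.4 CPM (22.8 to 32.6) and CSF1 at 3.92 CPM (0.0992 to 21.8, 1 UMI) against 3.72 CPM (2.17 to 5.96). The CPM intervals of GZMK, NKG7 and GNLY did not overlap and those of CST7, CCL5, HOPX and CSF1 did, but CPM intervals take UMIs of 1 cell as independent. As shares of cells, the intervals overlapped for GZMK (0 of 53 cells, 0 to 6.72%, against 4.66%, 3.4 to 6.2%), for NKG7 (7.55%, 2.09 to 18.2%, against 13.4%, 11.3 to 15.8%) and for GNLY (1.89%, 0.0478 to 10.1%, against 6.88%, 5.35 to 8.68%). Downwards, EGR1 (-2.54), IGHM (-2.11), the heavy chain of immunoglobulin M, MAMU-DRA (-1.47) and the segments TRAV12-3 (-1.62), TRAV19 (-1.24) and TRBV7-9 (-1.18) had the lowest ratios, and TRAV20 (-1.03, and -0.94 without the highest cell) was past the fold too. The B cell list summed to 43.7 CPM in the TRAV13-1+ GZMB- cells and 121 CPM in the CCR7+ LEF1+ cells, with CD79A its most abundant gene there and EBF1 and CD22 at 0 in the former. Without cells of red blood cell or B cell genes, EGR1 was at -0.01 (-0.41 to 0.55) and IGHM at -0.08 (-0.24 to 0.40), and MAMU-DRA turned to 0.83 (0.33 to 1.30). TRAV12-3 (-1.69), TRAV19 (-1.29) and TRBV7-9 (-1.24) were still past the fold. The ratios of TRAV12-3, TRAV19 and TRAV20 are a description, since TRAV13-1 is required in the TRAV13-1+ GZMB- cells and barred from the CCR7+ LEF1+ cells.

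The cells varied among themselves by naive and effector genes. CCR7 and LEF1 were both present in 53 of the 216 cells (24.5%) and both absent in 78 (36.1%). CD7 was in 86.8% (74.7 to 94.5%) of the former and 50% (38.5 to 61.5%) of the latter, and NKG7 in 7.55% and 38.5%. GZMK was in 0 of the 53 (0 to 6.72%) and 11.5% (5.41 to 20.8%) of the 78, and these intervals overlap. The comparison T cells split the same way, with CD7 in 84% and 39.6%, NKG7 in 13.4% and 49.2% and GZMK in 4.66% and 20.4%. The 39 cells with SFRP5 had CD7 in 89.7% (75.8 to 97.1%), against 62.1% (54.6 to 69.3%) of the 177 without it. CST7 (cystatin F) was in 5.13% against 27.1%. GZMK was in 0 of 39 (0 to 9.03%) against 11.3% (7.04 to 16.9%), with overlapping intervals. The comparison T cells with and without SFRP5 went the same way, with CD7 in 82.1% and 58.6% and CST7 in 10.5% and 30.8%. By TRAV13-1 UMIs, SFRP5 was in 23.5% of cells with 1 UMI, 20.8% with 2 and 13% with 3 or more, and these intervals overlap (14.1 to 35.4%, 10.5 to 35% and 7.11 to 21.2%).

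On the surface, the CD4 tag had a median of 439.5 UMIs per cell (quartiles 353.5 and 542.5), against 432 in the comparison T cells and 90 in the B gene cells. The CD8 tag had a median of 311.5 (quartiles 160.2 and 648; interval of the median 285 to 413), against 338 and 139.5. A limit was set at percentile 90 of the B gene cells, 191 for CD4 and 330.5 for CD8. Above it were 96.8% of the TRAV13-1+ GZMB- cells for CD4 (comparison 95.8%) and 49.1% for CD8 (42.2 to 55.9%; comparison 51.1%). Both limits were passed by 102 cells (47.2%, 40.4 to 54.1%), against 49.6% of the comparison T cells. CD8A RNA was in 41.7% and CD4 RNA in 49.1% of the cells, against 37.3% and 47.9%, and CD8B in 4.63% against 4.86%. The cells held 3.1% of the CD4 tag library and 3.02% of the CD8 tag library, and 3.18% of the RNA UMIs.

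**Figure D5:**
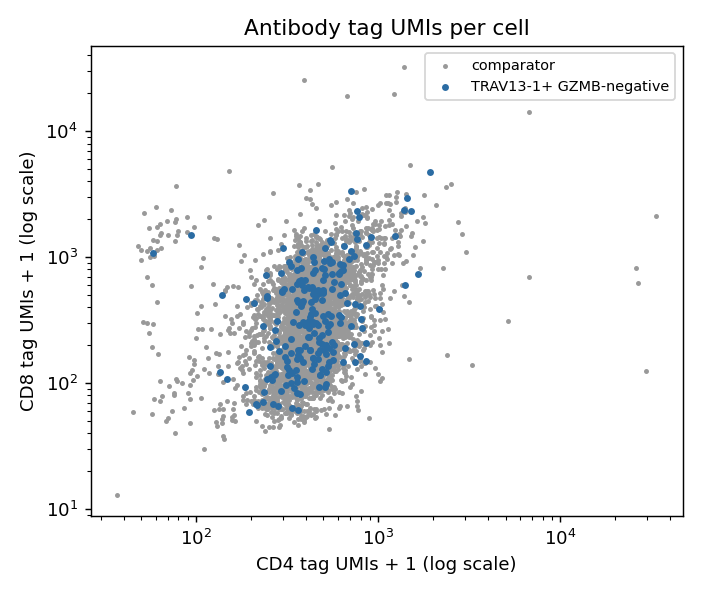
CD8 tag UMIs + 1 (vertical axis) against CD4 tag UMIs + 1 (horizontal axis), both on log scales, for TRAV13-1+ GZMB- cells over the comparison T cells. The 216 cells spread over the range of the comparison T cells, with medians of 439.5 for CD4 and 311.5 for CD8.

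The cells lay among other GZMB-negative cells in gene expression. With receptor segments, SFRP5, GZMB and CD7 left out, 5.86% of their 20 nearest neighbours were cells of the same gate, against 2.83% of all cells. Among neighbours lacking GZMB, as the gate itself does, the share was 6.28% against 5.06%, a ratio of 1.24. For the same gate on the other alpha segments this ratio ran from 0.919 to 10.3, the highest being TRAV10. Of all neighbours 27.9% were CCR7+ LEF1+ comparison cells and 6.74% carried GZMB. For the neighbours of comparison T cells these shares were 22.7% and 10.8%. CCR7+ LEF1+ comparison cells were 12.4% of all cells.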

How the data were processed

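Cells of 1 blood sample were sorted for CD4 and CD8, with RNA and antibody tags read on the 10x 5′ kit. Per the submitters' processing notes, the authors used Cell Ranger 3.1.0, STAR 2.5.1b and the Mmul_10 build, and deposited raw UMI counts of 35432 genes and 2 tags in 7923 barcodes, without normalization. They analysed them in Seurat 3.1.3. No source used here gives the annotation release. Symbols came from the deposited gene list (23817) and a table of gene names (675 more).

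The rule's quality limits were applied (200 to 4000 genes, no more than 20% of UMIs mitochondrial), and genes found in at least 3 barcodes were kept. UMIs were summed per group, scaled to CPM, and compared as the log2 ratio of CPM + 10 for genes with a mean of at least 20 CPM. A log2 ratio of 1 counted as past the fold. TRAV13-1, TRAV38-1, GZMB and CD3E, and CCR7 and LEF1 for the naive gate, were left out of the counts because the gates use them. Intervals are exact: binomial for shares, Poisson for levels and the binomial split of 2 counts for ratios. Of the cells, 205 of 216 and 3630 of 3824 had at least 2000 UMIs for thinning. Neighbours came from 15 PCs of 2000 variable genes in scanpy 1.11.5. Doublets were scored with Scrublet at an expected 6%, which marked 0 of the 7601 cells by its default cutoff and therefore failed, and doublets were not removed. Scripts ran in Python 3.11.15 (scikit-learn 1.9.0, Biopython 1.88, scipy 1.17.1, matplotlib 3.10.9, numpy 2.4.6, pandas 2.3.3), and the ratio and thinning code was tested on simulated data.

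Named genes were the markers and gate genes, list members past the fold, the 12 largest and 12 smallest ratios whose higher group had 20 UMIs or more (6 for the other comparisons), and any receptor segment counted. Genes and groups singled out beyond this were chosen after their values were seen. The members and the 20 gene lists were chosen with earlier results of these data known. Results for some genes are not reported here. Exons were read from the RefSeq annotation of Mmul_10.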

Additional observations from a re-analysis of the deposited data

Results flagged for a closer look

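TRAV13-1 was also seen outside the cells analysed. Of the 322 barcodes that failed the quality limits, 6 had a TRAV13-1 UMI (1.86%, 95% exact binomial interval 0.687 to 4.01%), with 21 UMIs in all. These barcodes enter no comparison above. The limit that a count of 0 allows over them is 0.932%.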

How the results depend on the processing

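No paired analysis was possible because each library holds 1 sample. The number of cells, the medians of both tags, the log2 ratios of SFRP5 and CD7 and the neighbour share stayed within 1.5 times or the main interval under every alternative run for them, the SFRP5 ratio falling to -0.15 with at least 2 TRAV13-1 UMIs. The TRBV14 log2 ratio stayed below 0, at -1.83 in thinned cells, -1.78 with the gate after thinning, -2.04 and -0.48 with pseudocounts of 1 and 50, -1.80 as a mean over cells, and -1.93 in cells without another alpha segment, of which a share of 0 had TRBV14. The share with SFRP5 was 10.7% in thinned cells and 10.2% with the gate after thinning, where each cell has fewer UMIs. Genes past the fold upwards, 3 in the main comparison, were 5 at a mitochondrial limit of 10%, 5 with at least 2 TRAV13-1 UMIs, 7 in thinned cells, 8 with the gate after thinning, 5 and 1 with pseudocounts of 1 and 50, 0 at a mean of at least 100 CPM and 15 at a fold of 1.5. Downwards, 12 in the main comparison, they were 27 with the gate after thinning, 3 with a pseudocount of 50, 31 with no filter on low values, 1 at a mean of at least 100 CPM and 34 at a fold of 1.5. Among named genes, TRAV12-2 turned below 0 against the comparison T cells with at least 2 TRAV13-1 UMIs. HBB turned to 0.32 with the gate after thinning, 0.08 without the highest Scrublet scores and 0.10 without cells of red blood cell or B cell genes. MAMU-DRA turned to 0.17 with the gate after thinning, 0.29 as a mean over cells and 0.41 without those cells (0.83 against CCR7+ LEF1+ cells). Without the cell with most UMIs of the gene, HBB was at 0.08 and CXCL13, against TRAV38-1+ cells, at 1.08. Other causes were not tested. The cells of red blood cell or B cell genes, the cells without another alpha segment, and leaving out the cell with most UMIs of a gene, were chosen as alternatives after seeing the data. With a median of 4166.5 UMIs per cell, absence of a segment's UMI does not show absence of the segment.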
